A study of Mus musculus with 4 samples.

Results

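Cd74-expressing microglia are described here, taken as the cells that carried 3 or more transcripts of Cd74 together with at least 1 transcript of Tmem119, a gene known as a marker of microglia. Transcripts were counted as UMIs, molecular tags that count each captured transcript once. Of 8220 cells that had at least 1000 UMIs, at least 500 detected genes, at most 10% mitochondrial UMIs and a Tmem119 UMI, 399 met this rule, out of 8486 barcodes in all. They were compared with the 6861 cells of the same libraries that met the same filters and had 0 Cd74 UMIs, called the comparison cells. The cells were thus chosen by their measured Cd74 and Tmem119 counts, so the values of these genes and the shares they define are a description without a test.

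The microglia came from the brains of C57BL/6 mice that had received a single whole-brain dose of 8 Gy, or a sham procedure, on postnatal day 21. There was 1 droplet library per group, each a pool of 4 mice, from sham mice at 6 h, irradiated mice at 6 h, sham mice at 1 week and irradiated mice at 1 week, and values of the 4 libraries are always given in that order. The labels name the brain as the source and the design text speaks of the hippocampus. Sex is not stated, and the spread between mice cannot be seen within a pool. Every group compared here received either radiation or sham handling and no other agent is named.

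Cd74 encodes the invariant chain, the chaperone that holds freshly made MHC class II molecules until a peptide can be loaded, and it also serves at the cell surface as a receptor for the cytokine Mif. Class II molecules present peptides from engulfed material to CD4+ T cells, while class I molecules present peptides made inside the cell to CD8+ T cells. Resting microglia carry little of the class II machinery. Its genes are induced by interferon gamma through the activator Ciita, and Cd74 is also found in the activated states of microglia seen in ageing and disease, and in macrophages at the borders of the brain.

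Cd74-expressing microglia made up 2.21% of the filtered Tmem119-positive cells in sham at 6 h (58 of 2623 cells, exact Clopper-Pearson 95% interval 1.68 to 2.85%) and 16.2% in irradiated at 6 h (307 of 1898, 14.5 to 17.9%). At 1 week they made up 1.79% in sham (28 of 1561, 1.20 to 2.58%) and 0.281% in irradiated (6 of 2138, 0.103 to 0.610%). The irradiated library at 6 h stood above the other libraries and the irradiated library at 1 week below them, with intervals that did not overlap with any other library, whereas those of the sham libraries overlapped. Intervals cover counting error only, and since each group is a single library no difference between treatments could be tested. The order of the libraries was the same after cells were thinned to 2000 UMIs, with shares of 0.512, 8.04, 0.363 and 0.0983%. The intervals of the 3 lower libraries then overlapped. Cells below 2000 UMIs were left out of thinned values, 82, 58, 184 and 103 cells, so these shares are of 2541, 1840, 1377 and 2035 cells. The shares with at least 1 Cd74 UMI were 12.2, 40.0, 10.4 and 5.43% at full depth and 8.19, 30.2, 7.33 and 3.29% after thinning. Few barcodes could serve to gauge free RNA: among barcodes with at most 2 UMIs of the microglial and leukocyte genes together, 0 of 1, 0 of 8 and 0 of 3 had a Cd74 UMI in the first 3 libraries, at median depths of 818, 795.5 and 620 UMIs, and the last library had 0 such barcodes.

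**Figure D1:**
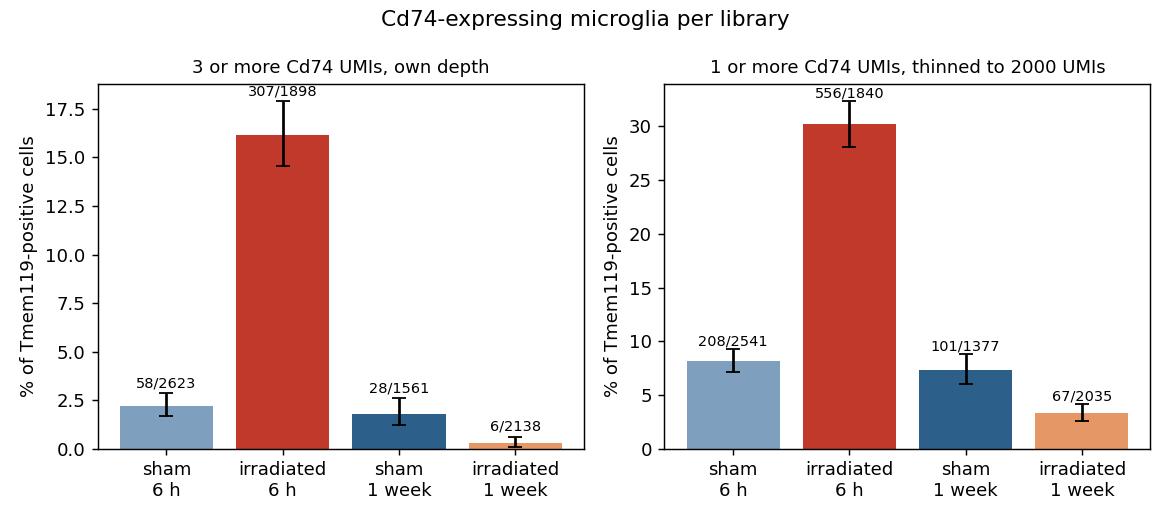
Share of filtered Tmem119-positive cells with 3 or more Cd74 UMIs at their own depth (left, percent of cells) and with at least 1 Cd74 UMI after thinning to 2000 UMIs (right, percent of cells), 1 bar per library, with exact 95% intervals for counting error. Cells below 2000 UMIs are left out on the right. In both panels the irradiated library at 6 h is the highest, at 16.2% and 30.2%, and the irradiated library at 1 week the lowest, at 0.281% and 3.29%.

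The 399 cells carried 49.1, 79.5, 43.1 and 15.2% of the Cd74 UMIs of the Tmem119-positive cells, and Cd74 stood at 63.7, 405, 50.1 and 18.9 CPM, UMIs scaled to a common total, over all of these cells. Within the set the counts were skewed. The median cell had 4, 4, 3 and 4 Cd74 UMIs and the highest had 50, 424, 12 and 4. At the edge of the rule, 25, 103, 16 and 2 cells had exactly 3 Cd74 UMIs and lay just inside, and 50, 138, 25 and 13 cells had exactly 2 and lay just outside. In the irradiated library at 6 h the cells just inside had a class II transcript in 6.80% of cells and H2-K1 at 2013 CPM. Just outside, these values were 8.70% and 1469 CPM. The rule is a cut on a count, and whether it falls at a gap between kinds of cells was not tested.

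The set differed from the comparison cells in depth, which bears on every share of cells with a transcript. Median UMIs per cell were 4333.5, 3931, 4629 and 3597.5 against 3503, 3393, 3547.5 and 3414, and the mitochondrial share had medians of 1.29, 1.29, 1.73 and 1.18% against 1.09, 1.05, 1.27 and 1.20%. The doublet caller Scrublet marked 2 of the 399 cells. None of the barcodes of the set was shared between libraries. Summed over cells the set held 266601, 1299170, 129147 and 22848 UMIs, so 1 UMI is worth 3.75, 0.770, 7.74 and 43.8 CPM. The irradiated library at 1 week, with 6 cells, therefore gives no usable value for a scarce gene: 3 counts, the limit that a count of 0 allows, correspond to 131 CPM there.

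Markers of microglia other than Tmem119, which the rule used, were abundant in the set. All 9, among them P2ry12, Csf1r and C1qa, were found in each library, at a summed 51099, 45705, 52057 and 52652 CPM against 58727, 50412, 54932 and 56635 CPM in the comparison cells, so the set was lower in each library. P2ry12, a purine receptor gene of microglia, had a UMI in 58 of 58, 283 of 307, 28 of 28 and 6 of 6 cells. Markers of border macrophages summed to 112, 190.2, 100.4 and 174 CPM against 195, 185, 176 and 199 CPM, with 8 of 11 genes detected. Of their 295 UMIs in the set, 226 were Stab1, which the comparison cells also held at 4179 UMIs. Without Stab1 the list summed to 11.3, 50.03, 0 and 43.8 CPM against 20.1, 14.2, 17.1 and 25.2 CPM, so in irradiated at 6 h the set was above its comparison cells, with 65 against 57 UMIs. There Pf4 had 33 UMIs against 12, Ms4a7 11 against 5, Mrc1 11 against 29, Cd163 4 against 2 and Lyve1 2 against 0.

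Monocyte markers summed to 44.9, 113, 0 and 43.6 CPM in the set against 35.7, 27.4, 13.8 and 14.1 CPM, with 5 of 9 genes detected. The irradiated library at 6 h stood highest. Of its 148 monocyte-marker UMIs, 78 were Ms4a4c and 53 were Plac8, and they lay in 46 of 307 cells. Ly6c2, Chil3 and Vcan were at 0 in all 399 cells, and Ccr2 had 6 UMIs. Dendritic cell markers, mostly Naaa and Batf3, summed to 120, 117, 131 and 174 CPM against 114, 87.4, 123 and 99.0 CPM, with Clec9a, Cd209a, Ccr7 and Xcr1 at 0 and Ifi205 at 12 UMIs, all in irradiated at 6 h, against 1 UMI in the comparison cells. B cell markers, nearly all Cd79b, summed to 82.3, 33.0, 30.9 and 0 CPM against 92.2, 40.6, 76.0 and 67.4 CPM, with Ms4a1 at 0. T and NK cell markers had 4 UMIs and neutrophil markers 0 UMIs over the whole set.

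The class II and class I genes sit close together on chromosome 17, and the windows before the starts of several genes described here carry short motifs of known names. The Y box, known from class II promoters as the site of the factor NF-Y, was searched as CTGATTGG, and the interferon-stimulated response element, known from interferon-induced genes, as a pair of GAAA with 2 bases of any kind between, on both strands in the 150 bases before each start. The Y box was in 3.16% of 32851 promoters and the response element in 1.59%. Of 57 named genes higher in the set, 43 had a promoter entry, 6 of these held the Y box and 7 the response element. Of the genes shown next, H2-Eb1 was too scarce to be tested. The windows of H2-Aa and H2-Eb1 (class II chains), H2-D1 (class I chain), Cxcl10 (chemokine) and Ifit3 (interferon-induced) are shown as examples. They are RefSeq sequences on GRCm38.p6, read 5′ to 3′ toward the gene, with the motif in capitals. H2-Aa lies at chr17:34287824-34287973 on the minus strand, H2-Eb1 at chr17:34305717-34305866 on the plus strand, H2-D1 at chr17:35262944-35263093 on the plus strand, Cxcl10 at chr5:92348890-92349039 on the minus strand and Ifit3 at chr19:34583379-34583528 on the plus strand.
H2-Aa: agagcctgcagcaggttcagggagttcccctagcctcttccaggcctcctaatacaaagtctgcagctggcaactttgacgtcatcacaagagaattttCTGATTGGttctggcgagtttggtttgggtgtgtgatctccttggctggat
H2-Eb1: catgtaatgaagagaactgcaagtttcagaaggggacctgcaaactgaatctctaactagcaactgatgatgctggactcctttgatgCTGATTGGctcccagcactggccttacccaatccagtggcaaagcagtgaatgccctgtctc
H2-D1: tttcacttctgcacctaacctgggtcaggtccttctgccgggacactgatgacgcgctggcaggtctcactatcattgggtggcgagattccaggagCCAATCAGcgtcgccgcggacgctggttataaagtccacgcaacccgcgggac
Cxcl10: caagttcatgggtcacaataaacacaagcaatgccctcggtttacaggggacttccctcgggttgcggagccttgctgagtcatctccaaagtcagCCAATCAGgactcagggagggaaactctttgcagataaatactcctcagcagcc
Ifit3: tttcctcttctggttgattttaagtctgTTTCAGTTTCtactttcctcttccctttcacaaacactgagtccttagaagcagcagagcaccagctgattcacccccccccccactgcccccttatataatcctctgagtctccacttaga
The Y box ended 43 bases before the start in H2-Aa, 54 in H2-Eb1, 45 in H2-D1 and 46 in Cxcl10, reading on the opposite strand in H2-D1 and Cxcl10. The response element of Ifit3 ended 112 bases before the start, also on the opposite strand. A match of letters is a description of the window and not a measured binding site.

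To compare all genes, UMIs were summed per library over the Cd74-expressing cells and over the comparison cells, and the pair of sums of each library entered edgeR's quasi-likelihood test with the library as a block. The 4 libraries thus stood as replicates although they differ in treatment and time, and the p-values measure only the spread between these libraries. Of 9392 genes tested, 184 were higher in the Cd74-expressing cells (1.96%) and 77 were lower (0.82%), together 2.78%, at a Benjamini-Hochberg adjusted p of 0.05. Without TMM scaling 199 were higher and 179 lower, so the split between directions depends on the scaling. Of the 184, 71 were higher by CPM in all 4 libraries and 82 in 3, and of the 77, 64 were lower in all 4. CPM are given without TMM scaling throughout. The TMM factor was 1.44 for the set in irradiated at 1 week and 0.888 to 0.985 for the other sums. On the fit's scale the set of that library therefore stands lower than its CPM show. The irradiated library at 6 h holds 307 of the 399 cells, and without it 65 genes were higher (0.693%) and 8 lower (0.0853%) of 9374. Its weight is therefore given for each gene group. The shares called higher and lower were 1.26 and 0.243% without sham at 6 h, 1.51 and 0.361% without sham at 1 week, 2.82 and 1.29% without irradiated at 1 week, and 0.596 and 0.138% in DESeq2.

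Among the class II molecules and chaperones, 2 of 7 tested genes were higher and 0 lower, beside 1.96% higher over all genes. H2-Aa and H2-Ab1, the alpha and beta chains of the I-A molecule, were called higher, and the other 5 genes tested were not, with a list median of 0.01 on the log2 scale against -0.04 over all genes. H2-Ab1 (ENSMUSG00000073421, mm10 chromosome 17, 34257689 to 34269419) stood at 67.5, 145, 54.2 and 0 CPM in the set and at 9.03, 10.5, 13.9 and 5.70 CPM in the comparison cells. The first 3 libraries of the set lay above all comparison values, and the last held 0 UMIs in its 6 cells. The log2 fold of H2-Ab1 was 3.19 (SE 0.27, adjusted p = 6.12e-30, edgeR) and 2.43 without the irradiated library at 6 h (adjusted p = 0.00111). H2-Aa (ENSMUSG00000036594, chromosome 17, 34282744 to 34287823) rested on few transcripts outside that library, with 7, 138, 1 and 1 UMIs in the set and 0, 3, 2 and 2 in the comparison cells. Its fitted log2 fold was 6.95 (SE 0.56, adjusted p = 1.94e-31). The comparison cells stood at 0, 0.749, 0.407 and 0.278 CPM, too low for the filter on abundance. H2-Aa therefore entered the test only through the set, where it is high, so its p-value is not independent support. H2-Eb1, the beta chain of the I-E molecule, was too scarce to be tested, with 3, 83, 1 and 0 UMIs against 3, 1, 2 and 3.

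A single cell held most of these class II transcripts. In the irradiated library at 6 h, the cell with 424 Cd74 UMIs carried 117 of the set's 138 H2-Aa UMIs, 131 of 189 H2-Ab1 UMIs and 77 of 83 H2-Eb1 UMIs. It had 7536 UMIs in all, 6 of Tmem119, 0 of P2ry12, 3 of Ccr2, 65 of Lyz2 and 14 of the monocyte markers, and Scrublet did not mark it. Without this cell H2-Ab1 was at a log2 fold of 2.35 (adjusted p = 1.12e-10) and H2-Aa at 5.79 (adjusted p = 3.41e-14), so both calls held at smaller size. Counted by cells, each cell weighs the same. H2-Aa, H2-Ab1 or H2-Eb1 was seen in 8 of 58, 47 of 307, 6 of 28 and 1 of 6 Cd74-expressing cells, or 13.8, 15.3, 21.4 and 16.7%, against 76 of 2302, 43 of 1139, 61 of 1398 and 44 of 2022 comparison cells, or 3.30, 3.78, 4.36 and 2.18%. The shares of the set lay above those of the comparison cells in every library, and most Cd74-expressing cells had no class II transcript at this depth. After thinning to 2000 UMIs the shares were 6.90, 9.54, 11.1 and 0% (0 of 6 cells) in the set and 1.89, 2.37, 2.45 and 0.884% in the comparison cells.

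Within the irradiated library at 6 h the share of cells with a class II transcript was larger in bins of more Cd74. It was 3.78% at 0 Cd74 UMIs, 7.96% at 1, 8.70% at 2, 6.80% at 3, 16.4% at 4, 18.3% at 5 to 9 and 26.7% at 10 or more (12 of 45 cells, 14.6 to 41.9%). Median depth also went from 3393 UMIs at 0 to 4780 in the last bin, and its part in this trend was not tested. In the other libraries the bins above 4 held too few cells to show a course.

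**Figure D2:**
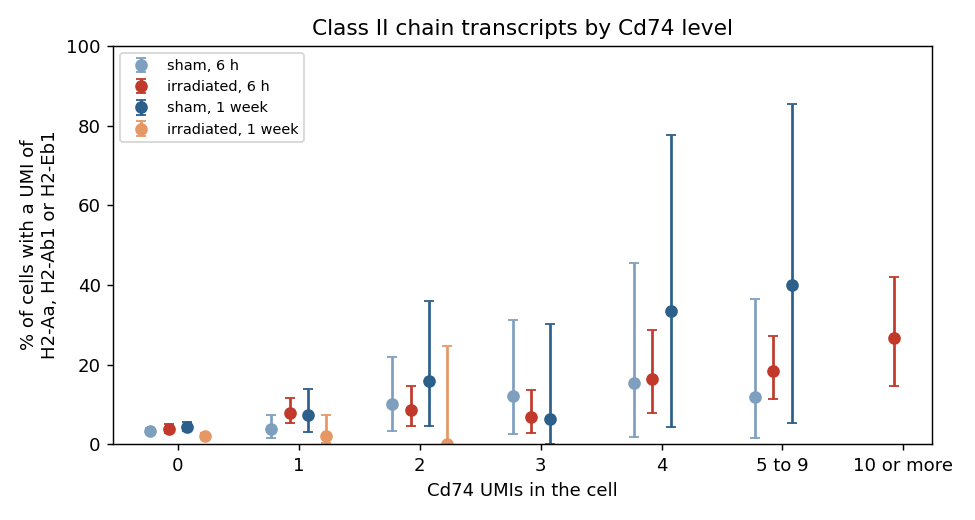
Percent of cells with a UMI of H2-Aa, H2-Ab1 or H2-Eb1 (vertical axis) by the number of Cd74 UMIs in the cell (horizontal axis), per library, for bins of at least 5 cells, with exact 95% intervals. In the irradiated library at 6 h the points go from 3.78% at 0 Cd74 UMIs to 26.7% at 10 or more. The intervals of the bins at 0 and 1 do not overlap, and those of neighbouring bins from 1 upward do.

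The other tested genes of the class II list did not pass. H2-DMa and H2-DMb1, whose products exchange the invariant chain fragment for a peptide, had log2 folds of -0.06 (adjusted p = 0.976) and 0.01 (adjusted p = 0.993). H2-DMa stood at 293, 231, 403 and 263 CPM against 312, 271, 319 and 381 CPM, with overlapping values. H2-DMb2, H2-Oa and H2-Ob, the last pair of which encode the brake on this exchange, were at -0.59, 0.08 and 0.01 and were not called. H2-Eb2 had 0 UMIs in every library. Of the class II regulators, 0 of 7 tested genes were called by edgeR, with 0 at an unadjusted p under 0.05 and 0 by DESeq2, and Ciita, the untested member of the list, had 0 UMIs in both sets of cells. The most abundant of them, Creb1 and Nfya, which encode factors that bind class II promoters, had log2 folds of -0.31 and -0.08 (adjusted p = 0.832 and 0.978). Among the genes that cut and prepare antigens, 2 of 9 were higher and 0 lower, beside 1.96% higher over all genes. Ifi30, the thiol reductase of the endosome, was at 0.59 (adjusted p = 0.018). Cd63, a tetraspanin of late endosomes, was at 1.20 (adjusted p = 6.47e-07), with 1902, 1356, 2044 and 1050.4 CPM against 631, 936, 545 and 603 CPM. By CPM all 4 Cd63 values of the set lay above all those of the comparison cells. On the fit's TMM scale, given above, the set in irradiated at 1 week lay below the comparison cells of irradiated at 6 h. The call of Ifi30 was lost without the irradiated library at 6 h (adjusted p = 0.613) and that of Cd63 was kept there (adjusted p = 0.000903) but lost without sham at 6 h (0.0724) or sham at 1 week (0.0846). Ifi30 was also lost without sham at 6 h (0.553).

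Of the genes of the costimulation list, 2 of 8 tested were higher and 0 lower, beside 1.96% higher over all genes. Cd83, a surface protein that stabilises class II molecules and Cd86 on antigen-presenting cells, stood at 810.2, 453, 395 and 1401 CPM against 129, 359, 123 and 89.7 CPM. Its log2 fold was 1.85 (SE 0.17, adjusted p = 2.99e-23), above its comparison cells in 4 of 4 libraries, although 1 of 6 cells gave 30 of the 32 UMIs in irradiated at 1 week. The difference was smallest in the irradiated library at 6 h, at 0.34 there against 2.65 in sham at 6 h. Without the irradiated library at 6 h it was 2.54, and in DESeq2 its adjusted p was 0.0689. Cd72, a C-type lectin receptor, was at 2.08 (adjusted p = 5.14e-05) but at 0.85 without that library (adjusted p = 0.976). The ligands Cd80 and Cd86, which bind CD28 on T cells, were at -0.32 and 0.30 (adjusted p = 0.875 and 0.582) and were not called. Icam1, Icosl, Tnfsf9 and Havcr2 had log2 folds of 0.30, 0.28, 0.98 and 0.08, also without a call. Cd40, Cd274 and Pdcd1lg2 had 10, 10 and 0 UMIs in the set and were not tested.

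Genes of MHC class I were higher across most of their list. Of 9 class I molecules tested, 7 were higher and 0 lower, with a list median of 1.08 against -0.04 over all genes and a background of 1.96% higher. H2-K1 stood at 900.2, 2154, 387 and 1313 CPM against 366, 859, 326 and 378 CPM, with a log2 fold of 1.12 (SE 0.20, adjusted p = 2.41e-06). In each library the set was above its own comparison cells, although the set in sham at 1 week, at 387 CPM, lay below the comparison cells of the irradiated library at 6 h. Its adjusted p was 0.0613 without sham at 6 h. H2-D1 stood at 2202, 2402, 697 and 2101 CPM against 816, 930.1, 465 and 599.9 CPM, with a log2 fold of 1.23 (SE 0.21, adjusted p = 3.93e-07). Both genes encode classical class I heavy chains and are so alike that reads may be shared between them and their Q and T relatives, so single values are uncertain. The Qa-2 genes H2-Q7 and H2-Q6 were at 2.46 (adjusted p = 7.58e-19) and 2.27 (adjusted p = 3.06e-07). H2-Q4, H2-T22 and H2-M3 were at 1.08, 0.91 and 0.86 (adjusted p = 2.76e-06, 0.00659 and 0.000481), and H2-T22 and H2-M3 were lost without sham at 6 h (0.178 and 0.25). H2-T23, which encodes the ligand of NK cell receptors, was at 0.03 (adjusted p = 0.991).

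B2m, the light chain shared by class I molecules, was not called. It stood at 7802, 8163, 4793 and 4946 CPM against 4533, 4929, 3454 and 3812 CPM, above its own comparison cells in 4 of 4 libraries. On the fit's TMM scale it lay below them in irradiated at 1 week. Its log2 fold was 0.52, with an adjusted p of 0.425 in edgeR. Against the comparison cells of nearest depth, which were still shallower in irradiated at 6 h, it was 0.51 (adjusted p = 0.0442), and without the irradiated library at 1 week 0.72 (adjusted p = 1.77e-07). Without the irradiated library at 6 h, 3 of 9 class I genes remained called, namely H2-K1, H2-D1 and H2-Q7. Of the genes for peptide loading and the immunoproteasome, 1 of 12 was higher, beside 1.96% of all genes. This was Psme1, a proteasome activator subunit, at 0.56 (adjusted p = 0.033), lost without that library (adjusted p = 0.875), without sham at 6 h (0.854) and without sham at 1 week (0.0725).

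Interferon-induced genes were higher across their list, and most of these calls were lost without the irradiated library at 6 h. Of 23 genes of the type I interferon response, 19 were higher and 0 lower, with a median of 1.49. Without that library 1 of 21, Ifitm3, was called, with a median of 0.52 against -0.11 over all genes. The shares higher over all genes were 1.96% with that library and 0.693% without it. Ifitm3, an antiviral membrane protein gene, stood at 236, 656, 31.0 and 131 CPM against 107, 137, 17.1 and 51.2 CPM, above its own comparison cells in 4 of 4 libraries (log2 fold 1.79, adjusted p = 2.54e-19; 1.13 and 0.00461 without the irradiated library at 6 h). Ifit3, which binds viral RNA, stood at 48.8, 272, 101 and 0 CPM against 55.2, 41.7, 14.9 and 21.1 CPM (log2 fold 2.05, adjusted p = 2.87e-27). The set was above its comparison cells in the irradiated library at 6 h and in sham at 1 week, where 1 cell held 12 of the 13 UMIs, and in sham at 6 h the log2 fold was -0.18 (-1.10 to 0.61, counting error). Ifit3 has a near-identical copy beside it, so its reads may be shared. Ifi204, a sensor of DNA with close relatives in the same gene cluster, was at 2.08 (adjusted p = 1.85e-15) from 48.8, 141, 46.5 and 0 CPM against 29.1, 24.2, 7.94 and 9.46 CPM. Zbp1, a sensor of left-handed nucleic acids, and Rsad2, the antiviral enzyme viperin, were at 2.23 and 2.14 (adjusted p = 7.99e-06 and 2.83e-05). The irradiated library at 6 h gave 84 of the 88 Zbp1 UMIs and 79 of the 83 Rsad2 UMIs in the set. Without it Ifit3, Ifi204 and Zbp1 had adjusted p of 0.725, 0.522 and 0.99, and Rsad2 was too scarce to be tested. Ifitm3 was chosen for naming after its values were seen.

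Interferon gamma is the classical inducer of class II genes. Of its signalling genes 3 of 19 were higher and 0 lower, with a median of 0.11, beside 1.96% higher over all genes. Cxcl10, a chemokine that draws T cells, stood at 26.3, 160.1, 0 and 438 CPM against 15.1, 19.2, 26.7 and 7.37 CPM (log2 fold 2.43, SE 0.23, adjusted p = 5.36e-22). The irradiated library at 6 h was high and sham at 1 week had 0 UMIs, and the value of 438 CPM at 1 week is 10 UMIs in 1 of 6 cells. Gbp2, an interferon-induced GTPase, was at 1.96 (adjusted p = 2.41e-06), and 104 of its 106 UMIs in the set came from the irradiated library at 6 h. Without that library 0 of 19 genes of the list were called by edgeR, 1 was higher and 1 lower at an unadjusted p under 0.05, and Gbp2 stood at -0.62. With all libraries DESeq2 called 0 of 19.

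**Figure D3:**
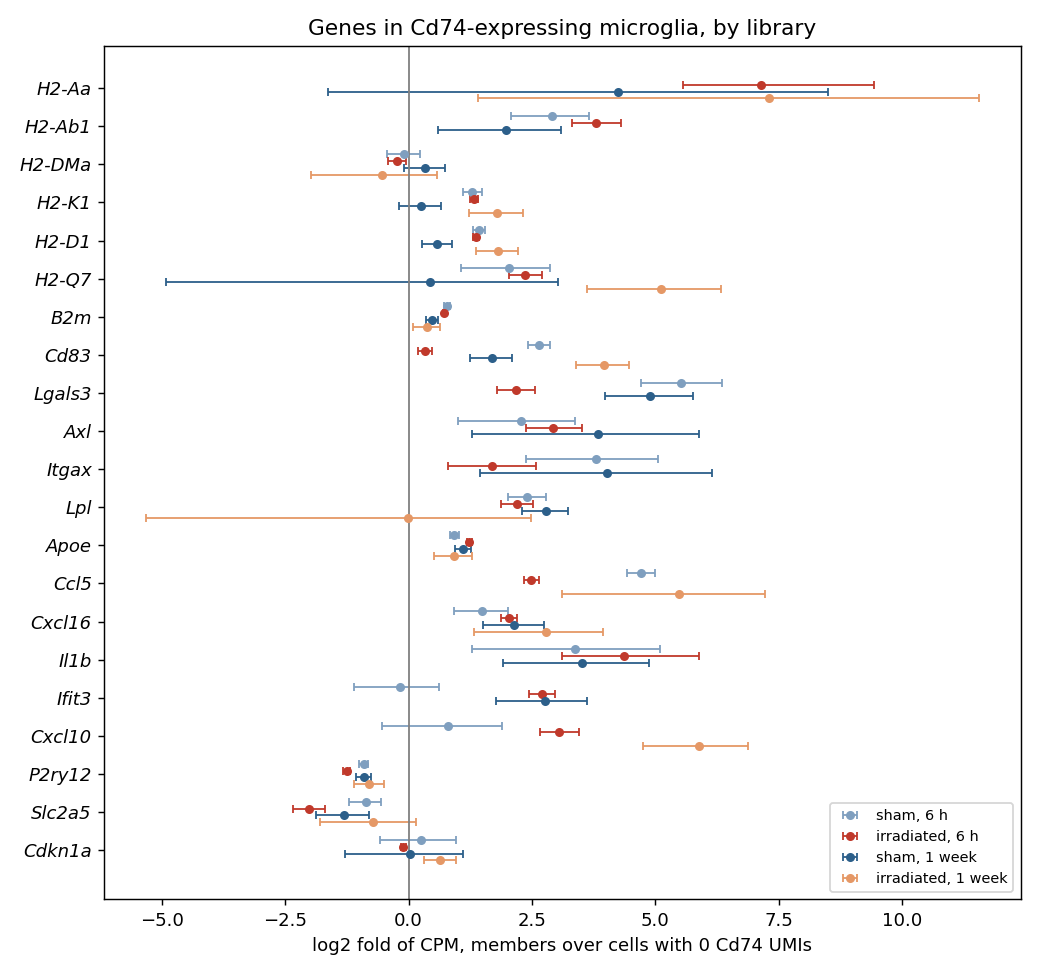
Log2 fold of CPM in Cd74-expressing cells over the comparison cells (horizontal axis) for 21 genes (vertical axis), 1 point per library with its counting 95% interval, and no point where a count was 0. H2-K1, H2-D1, Apoe and Cxcl16 lie above 0 and P2ry12 below 0 in all 4 libraries, while Ifit3 differs between libraries.

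Genes of disease-associated microglia, an activation state described around amyloid plaques and in degenerating tissue, were also higher. Of 20 tested, 13 were higher and 0 lower, with a median of 1.16, and 7 of 19 were higher without the irradiated library at 6 h. Over all genes the shares higher were 1.96% with that library and 0.693% without it. Lgals3, the gene of galectin-3, stood at 128, 109, 163 and 0 CPM against 2.77, 24.2, 5.50 and 1.67 CPM. The first 3 libraries of the set lay above all the comparison values. Its log2 fold was 3.65 (SE 0.26, adjusted p = 9.44e-41) and 5.03 without that library. In sham at 6 h, 27 of the 34 Lgals3 UMIs lay in 1 cell. Axl, a receptor for dying cells, was at 2.89 (adjusted p = 8.43e-11), Itgax, which encodes CD11c, at 2.72 (adjusted p = 6.52e-06) and the inhibitory receptor gene Lilrb4a, which has a near-identical neighbour, at 2.57 (adjusted p = 3.93e-07). Without the irradiated library at 6 h Axl and Lilrb4a had adjusted p of 0.103 and 0.081, and Itgax was too scarce to be tested.

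Further genes of this state and of phagocytes were named after their values were seen. Apoe, the lipid carrier, stood at 4729.9, 3541, 2640.4 and 2582 CPM against 2479.8, 1506, 1227 and 1366 CPM, in each library above its own comparison cells (log2 fold 0.98, adjusted p = 0.000647). Without the irradiated library at 6 h it was 0.83 (adjusted p = 0.371), and the call was also lost without sham at 6 h (0.15) or sham at 1 week (0.237). Lpl, a lipase, stood at 244, 152, 372 and 43.8 CPM against 45.9, 33.2, 54.0 and 44.1 CPM, above its comparison cells in the first 3 libraries (log2 fold 2.40, adjusted p = 1e-46). Cst7, a cathepsin inhibitor, was at 1.76 (adjusted p = 1.08e-08), and Lyz2, which encodes lysozyme and is also strong in monocytes, at 1.14 (adjusted p = 1.98e-09), with 360.1, 378, 441 and 525 CPM against 179.7, 183, 174 and 205 CPM. By CPM all 4 values of Lyz2 and of Cd52 in the set lay above all those of the comparison cells. On the fit's TMM scale this held for Lyz2, while Cd52 in irradiated at 1 week lay below its own comparison cells. Cd52, a small surface glycoprotein gene, stood at 769, 1029.9, 689 and 525 CPM against 316, 421, 275 and 388 CPM (log2 fold 1.18, adjusted p = 3.28e-08). Cybb, a subunit of the phagocyte oxidase, was at 3.24 (adjusted p = 2.61e-11), with 129 of its 133 UMIs from the irradiated library at 6 h, without which it was too scarce to be tested.

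Of 20 cytokine and NF-kB genes tested, 11 were higher and 0 lower, with a median of 0.91, and 7 of 20 were higher without the irradiated library at 6 h. The background over all genes was 1.96% higher with that library and 0.693% without it. Il1b, the gene of interleukin-1 beta, rested on few transcripts, 4, 40, 6 and 0 UMIs against 12, 6, 20 and 31, and its log2 fold was 3.64 (adjusted p = 1.59e-11). Cxcl16, a chemokine that is also a scavenger receptor, stood at 120.03, 594, 201 and 263 CPM against 42.5, 144, 45.4 and 37.8 CPM (log2 fold 2.02, SE 0.18, adjusted p = 4.27e-26). It was above its own comparison cells in 4 of 4 libraries and called without any 1 of them. Ccl5, which draws T cells and monocytes, was at 3.59 (adjusted p = 6.94e-67), with 189, 980, 0 and 3 UMIs against 225, 540, 3 and 21. Its transcripts lay in few cells, 97 of 189 in 1 cell of sham at 6 h and 312 of 980 in 1 cell of irradiated at 6 h. Ccl7, a monocyte chemokine, was at 2.02 (adjusted p = 2.3e-09), and 142 of its 148 UMIs in the set came from the irradiated library at 6 h, without which its adjusted p was 0.967.

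Of the partners and ligands of Cd74, 1 of 4 tested genes was higher, beside 1.96% of all genes. Mif, the ligand of the invariant chain at the cell surface, stood at 296, 297, 341 and 131 CPM against 111, 229.7, 109 and 101 CPM, with a log2 fold of 1.02 (SE 0.17, adjusted p = 1.93e-07). By CPM the set was above its own comparison cells in each library. The log2 fold was 0.37 in irradiated at 6 h and 0.37 in irradiated at 1 week. The latter came from 3 UMIs and lay below 0 on the fit's TMM scale. The interaction with irradiation did not pass (adjusted p = 0.973).

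Homeostatic microglia genes that passed were all lower. Of 25 tested, 4 were lower and 0 higher, with a median of -0.36 and a background of 0.82% lower. P2ry12 stood at 3679.7, 1526, 3097 and 4070.4 CPM against 6881, 3641, 5817 and 7066 CPM, below its own comparison cells in 4 of 4 libraries (log2 fold -1.05, SE 0.24, adjusted p = 0.000711). The call was lost without irradiated at 6 h (-1.04, adjusted p = 0.182), sham at 6 h (0.0767) or sham at 1 week (0.158). The set of the irradiated library at 6 h was the lowest of all, and the comparison cells of that library, at 3641 CPM, lay within the range of the sets of the other libraries. Slc2a5, a fructose transporter gene, stood at 311, 65.4, 240.04 and 438 CPM against 568, 264, 598 and 725 CPM (log2 fold -1.34, adjusted p = 1.41e-09) and was still called without the irradiated library at 6 h, at -1.10 (adjusted p = 0.02). Ecscr, a small membrane protein gene, was at -0.85 (adjusted p = 0.000492) and the purine receptor gene P2ry13 at -0.70 (adjusted p = 0.0186). Both were lost without the irradiated library at 6 h (0.11 and 0.247), and P2ry13 also without either sham library (0.252 and 0.348). The other 21 genes of the list did not pass.

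**Figure D4:**
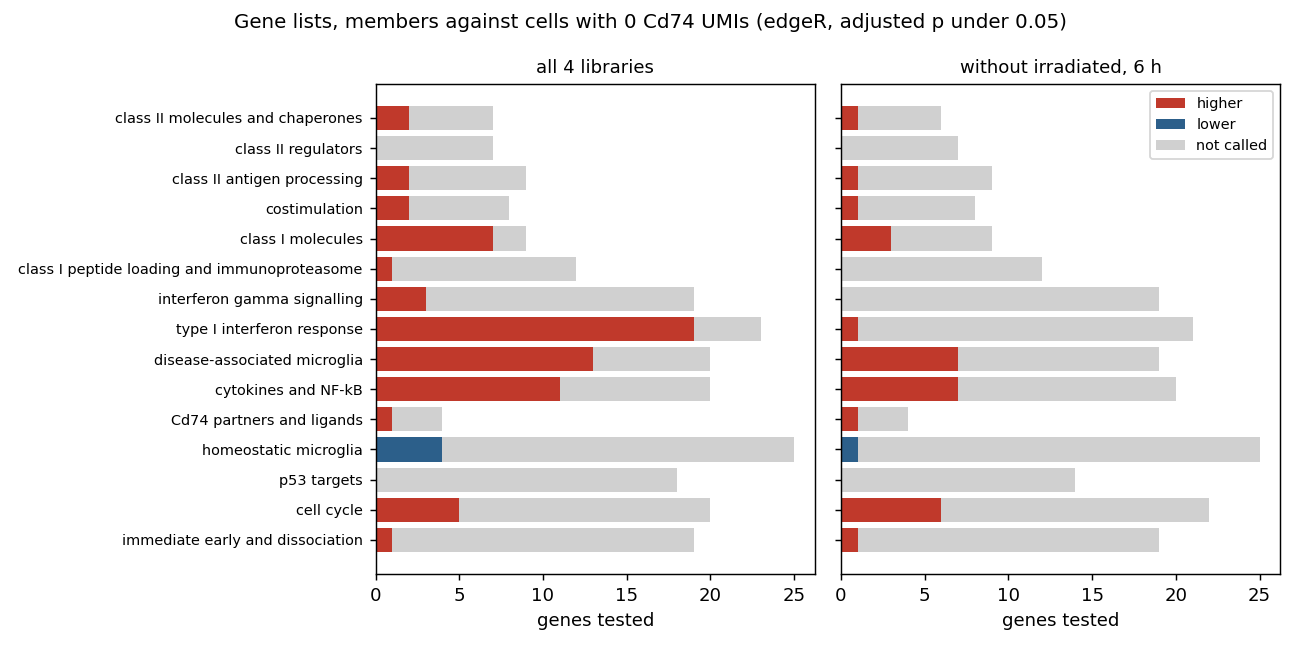
Number of genes tested in each list (horizontal axis) that were higher in Cd74-expressing cells, lower, or not called, with all 4 libraries and without the irradiated library at 6 h. Type I interferon genes go from 19 of 23 to 1 of 21 higher, class I molecules from 7 of 9 to 3 of 9, and disease-associated genes from 13 of 20 to 7 of 19. All genes tested go from 1.96% to 0.693% higher.

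The radiation marker Cdkn1a, the p53-induced cell cycle inhibitor gene, differed between the libraries far more than between the sets of cells. It stood at 60.0, 2801, 54.2 and 3458 CPM in the set and 50.6, 3012, 53 and 2214 CPM in the comparison cells, high in both irradiated libraries and low in both sham libraries. Between the sets its log2 fold was 0.08 (adjusted p = 0.976), and 0 of 18 p53 targets were called by edgeR, with 0 at an unadjusted p under 0.05 and 0 by DESeq2. Btg2, another target that limits proliferation, was at -0.16 (adjusted p = 0.905).

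Cell cycle genes were called in 5 of 20 cases, all higher, beside 1.96% higher over all genes. At 1 week 2 cells carried most of their UMIs. Ube2c, a ubiquitin enzyme of mitosis, had 0, 2, 21 and 6 UMIs in the set and 74, 9, 1 and 147 in the comparison cells (log2 fold 2.97, adjusted p = 9.67e-09). The whole list had 132 UMIs in the set of sham at 1 week and 75 in that of irradiated at 1 week. The counts per cell left out Hmgb2, Stmn1 and Pcna. By this reduced list 1 of 28 cells in sham at 1 week held 72 of 83 UMIs, including all 21 of Ube2c. In irradiated at 1 week 1 of 6 cells held 52 of 53. Cells with 5 or more UMIs of the reduced list numbered 0 of 58, 2 of 307, 1 of 28 and 1 of 6 in the set. In the comparison cells they numbered 29 of 2302, 4 of 1139, 6 of 1398 and 56 of 2022. Cenpe, Mki67 and Birc5, all genes of dividing cells, were at 2.47, 2.00 and 1.88 (adjusted p = 0.00719, 0.0301 and 0.049). Without the sham library at 1 week the log2 folds of Ube2c, Cenpe, Mki67 and Birc5 were 0.71, 1.48, -0.094 and -0.62, none of them called, and without the irradiated library at 1 week they were too scarce to be tested. Of 19 genes of the immediate early and dissociation list, 1 was higher, beside 1.96% of all genes. This was Atf3, a stress-induced transcription factor gene, at 0.82 (adjusted p = 0.000143), at 0.51 without sham at 6 h (adjusted p = 0.718) and at 0.18 against depth-matched cells (adjusted p = 0.797).

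Outside the lists, the highest genes with the same sign in all 4 libraries included further genes of phagocytes. Fgr, a Src family kinase of myeloid cells, stood at 30.0, 18.5, 31.0 and 43.8 CPM against 1.69, 1.75, 1.43 and 1.95 CPM, from 8, 24, 4 and 1 UMIs in the set. The first 3 values of the set lay above all comparison values, the last is 1 UMI, and the log2 fold was 3.96 (SE 0.52, adjusted p = 8.25e-12). The comparison values of Fgr were too low for the filter on abundance. It entered the test only through the set, where it is high, so its p-value is not independent support. Lgals1, a galectin gene, was at 2.46 (adjusted p = 2e-12), Vcam1, an adhesion molecule for leukocytes, at 2.33 (adjusted p = 2.61e-07) and Fxyd5, an ion pump regulator, at 2.08 (adjusted p = 3.52e-05). Slamf8, a receptor of macrophages, stood at 60.0, 131, 61.9 and 87.5 CPM against 16.6, 35.7, 19.6 and 13.4 CPM, with the first 3 values of the set above all comparison values and the last from 2 UMIs (log2 fold 1.93, adjusted p = 5.97e-15). Nceh1, a cholesterol ester hydrolase, and Cd300lf, an inhibitory lipid receptor, were at 1.85 and 1.74, and Phf11b and Gas2l3 at 1.69 and 1.44. Without the irradiated library at 6 h Fxyd5, Cd300lf, Phf11b and Crip1 were not called (adjusted p = 0.78, 0.465, 0.823 and 0.761), nor was Gas2l3 without sham at 6 h (0.168). Crip1, a LIM domain gene, was at 2.01 (adjusted p = 9.77e-05) and lost its call without the cell with 424 Cd74 UMIs, at 1.04 (adjusted p = 0.422).

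The lowest genes outside the lists were scarce in the set. Myo18b, an unconventional myosin gene, had 0, 1, 0 and 0 UMIs in the set against 114, 53, 72 and 84 in the comparison cells (log2 fold -4.37, adjusted p = 0.000224). In the only library with a count in the set, irradiated at 6 h, the log2 fold was -4.10 (-9.43 to -1.56, counting error). Adamts16, a metalloprotease gene, and Slco4a1, an organic anion transporter gene, were at -3.57 and -2.58 (adjusted p = 0.0224 and 0.00161). Myo18b and Adamts16 passed the filter on abundance only through the comparison cells, where they are high, so their p-values are not independent support. In the small sums of the set a count of 0 gives a lower sign by itself, so the same sign in all libraries adds little there. Bank1, a signalling adaptor also known from B cells, stood at 41.3, 12.3, 15.5 and 43.8 CPM against 76.7, 36.9, 61.7 and 85.7 CPM, below its own comparison cells in every library (log2 fold -1.30, adjusted p = 0.000222). Gpr165, A930033H14Rik, Tle3, Arid3a, Kcnk12 and Sema4b ranged from -1.85 to -1.22. Of these 10 genes only Gpr165 was still called without the irradiated library at 6 h (adjusted p = 0.0411), and Gpr165 in turn was lost without sham at 6 h (0.0735).

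Depth and scarce immune transcripts were followed in the same fit. With 3 comparison cells of nearest depth per Cd74-expressing cell, called depth-matched cells above, 84 genes were higher (1.92%) and 41 lower (0.938%) of 4369 tested. In irradiated at 6 h this needed 921 of the 1139 comparison cells and depth stayed unequal, at a median of 3931 UMIs against 3601, while the other libraries were matched within 3 UMIs. Against these cells 6 of 8 class I genes, 11 of 13 type I interferon genes, 8 of 14 disease-associated genes and 6 of 15 cytokine genes were higher and 4 of 25 homeostatic genes lower. Without cells that held 2 or more UMIs summed over the immune markers of other cell types, Ms4a4c, Plac8 and Stab1 included, the set held 31, 174, 21 and 4 cells, and 110 genes were higher (1.28%) and 29 lower (0.337%) of 8618. There 5 of 9 class I genes, 8 of 19 type I interferon genes, 12 of 19 disease-associated genes and 10 of 20 cytokine genes were higher and 3 of 25 homeostatic genes lower, and H2-Ab1 was called. When only markers in under 1% of comparison cells counted, which leaves out Ms4a4c and Plac8, 180 genes were higher (1.9%) and 70 lower (0.738%) of 9483. The set then still held 57, 301, 28 and 6 cells. With so few cells removed these counts could differ little from the main fit.

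Activation and interferon transcripts overlapped in part of the cells. The genes used here are the called ones of largest fold in their lists, so they were chosen from these same data. In the irradiated library at 6 h, a UMI of Lgals3, Axl, Itgax or Lilrb4a was seen in 93 of 307 Cd74-expressing cells (30.3%) and a UMI of Zbp1, Rsad2, Ifi204 or Ifit3 in 86 (28.0%). Cells with both numbered 44 and cells with neither 172. The interferon genes were seen in 47.3% of cells with an activation transcript and in 19.6% of those without. After thinning to 2000 UMIs these shares were 39.7 and 19.5%. Among the comparison cells of that library 86, 103, 23 and 973 of 1139 had the activation genes, the interferon genes, both or neither. There too the interferon genes were more frequent beside an activation transcript, in 26.7% of cells with one and 7.60% of those without. After thinning these shares were 20 and 5.80%, so in this library the overlap was not particular to the set. In sham at 6 h the numbers in the set were 12, 14, 6 and 38 of 58, with the interferon genes in 50% of cells with an activation transcript and 17.4% of those without, and in 11.1 and 10.2% after thinning, when 1 cell had both. In sham at 1 week they were 5, 2, 1 and 22 of 28, and in irradiated at 1 week all 6 cells had neither. The comparison cells differed between libraries. With and without an activation transcript their interferon shares were 41.3 and 9.02% in sham at 6 h (28.9 and 7.04% after thinning). In sham at 1 week they were 3.70 and 3.65% (0 and 1.99%), and in irradiated at 1 week 17.4 and 5.35% (7.14 and 3.88%).

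Whether the difference between the sets was itself different after irradiation was tested as an interaction, 2 irradiated libraries against 2 sham libraries. Of 9392 genes, 8 passed in edgeR at an adjusted p of 0.05 (0.0852%), 3 with a larger fold in the irradiated libraries (0.0319%) and 5 with a smaller one (0.0532%). The larger folds were those of Cxcl10 (interaction 3.53 on the log2 scale, adjusted p = 9.82e-07), Irf7, a transcription factor of the interferon response (2.37, 0.0146), and Ifit3 (1.87, 0.00529). Irf7 stood at 30.0, 169, 7.74 and 0 CPM against 36.3, 37.4, 6.11 and 12.4 CPM, with the set above the comparison cells in irradiated at 6 h and below them in sham at 6 h. All 6 cells of the irradiated library at 1 week had 0 UMIs of Irf7 and Ifit3, so their larger fold rests on the 6 h library.

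The smaller folds were those of Lgals3 (-2.97, adjusted p = 9.82e-07), Ank, a pyrophosphate transporter gene (-2.27, 0.00564), Ccl4 (-2.14, 0.0354), Csf1 (-2.06, 0.0184) and Ccl5 (-1.96, 0.0412). For Ccl4, a chemokine of activated microglia, the set stood at 1230.3, 2171, 3825 and 919 CPM and the comparison cells at 305, 2192, 717 and 572 CPM. At 6 h the comparison cells stood at 2192 CPM beside 2171 CPM in the set after irradiation, and in sham at 305 CPM beside 1230.3 CPM. Ank and Ccl4 lost the call of the contrast itself without either sham library. In sham at 6 h 179 of the 328 Ccl4 UMIs, and in sham at 1 week 236 of 494, lay in 1 cell. Lgals3 went the same way, since the comparison cells had 2.77 CPM in sham at 6 h and 24.2 CPM in irradiated at 6 h, while the set had 128 and 109 CPM. Csf1, a growth factor of microglia, stood at 71.3, 70.0, 108 and 0 CPM against 14.8, 46.4, 9.78 and 9.60 CPM. DESeq2 called 0 genes with a larger fold and 1 with a smaller one (40 genes at an unadjusted p under 0.05). Against the cells of nearest depth, with the remaining gap in irradiated at 6 h, edgeR called 0 of 4369 in either direction, with 140 at an unadjusted p under 0.05. Ank, Irf7, Csf1 and Ccl4 were named after their values were seen.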

How the data were processed

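The authors' deposited matrices held raw UMI counts per gene and barcode, and the submitters' processing notes name Cell Ranger 2.0 and mm10. How barcodes were kept is not given in the sources used here. Gene positions came from GENCODE vM21 by identifier. The files held 8486 barcodes (2670, 2023, 1623 and 2170 per library, with 9760928, 7399019, 5706955 and 7733309 UMIs), and the design text states 8095 cells. Between 4 and 12 barcodes of filtered cells were shared by a pair of libraries. The cells and gene lists were chosen with earlier results of these data known.

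UMIs were summed per library and cell set without Cd74 and Tmem119, and tested in edgeR 4.0.16 (R 4.3.3) with TMM, filterByExpr, a library block, glmQLFTest and Benjamini-Hochberg adjustment over all genes. Each library holds both cell sets, so it is the pair. Alternatives included DESeq2 1.42.0, thinning, depth matching and leaving out each library. CPM carry no correction for transcript length and no TMM scaling, and the signs per library come from them. The fit was tested on simulated counts. Doublets were called with Scrublet in scanpy 1.11.5, which marked 45 of 8369 filtered cells, and marked cells were kept. Named genes were all of the class II, class I and costimulation lists, up to 4 called genes of largest fold in each other list (the 2 most abundant where none was called), Cdkn1a, and the 10 highest and 10 lowest called genes outside the lists with the same sign in all libraries; others are said to be chosen later. Of 342 list and marker symbols 336 were matched. Some items of the lists are not reported here.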

Additional observations from a re-analysis of the deposited data

Results flagged for a closer look

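The difference between Cd74-expressing and comparison cells was itself different between irradiated and sham libraries for 8 genes in edgeR's quasi-likelihood test of the interaction. Cxcl10 (3.53 on the log2 scale), Irf7 (2.37) and Ifit3 (1.87) had larger folds in the irradiated libraries. Lgals3 (-2.97), Ank (-2.27), Ccl4 (-2.14), Csf1 (-2.06) and Ccl5 (-1.96) had smaller ones. Most of these calls did not hold when a library other than irradiated at 1 week was left out. Of the 3 larger and 5 smaller folds, 1 and 0 were still called without sham at 6 h, 0 and 1 without sham at 1 week, and 1 and 1 without irradiated at 6 h. Without irradiated at 1 week all 8 were called. Each of these fits leaves 1 library on a side, which is assumed to vary like the others.

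Cells without a Tmem119 UMI stand outside the comparisons. Among those that met the other filters, 15 of 88 in the irradiated library at 6 h had 3 or more Cd74 UMIs, against 0 of 29 and 0 of 21 in the sham libraries at 6 h and 1 week and 0 of 11 in the later irradiated library. At least 1 Cd74 UMI was seen in 43 of the 88 (48.9%, exact 95% interval 38.1 to 59.8%, median depth 2446.5 UMIs).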

How the results depend on the processing

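Counts of genes higher and lower in Cd74-expressing cells were 184 and 77. DESeq2 gave 56 and 13, no TMM scaling 199 and 179 (median of all genes -0.10 in place of -0.04), depth-matched comparison cells 84 and 41, thinning to 2000 UMIs 81 and 16, sets from 2 Cd74 UMIs 260 and 125, sets from 5 Cd74 UMIs 125 and 45, and leaving out cells with 2 or more UMIs summed over the other immune markers 110 and 29. With each library left out in turn the counts ranged from 65 to 268 higher and from 8 to 122 lower, both lowest without irradiated at 6 h and highest without irradiated at 1 week. Without the replicate block, which pairs the sets of a library, 25 and 1 were called. No gene filter gave 207 and 88 (median -0.15). The interaction gave 3 larger and 5 smaller folds, DESeq2 0 and 1, depth-matched cells 0 and 0, and the fit without other immune markers 1 and 5. With each library left out they ranged from 0 to 7 and from 1 to 73, the 73 without irradiated at 6 h, where the irradiated side is 6 cells. The causes were not tested. Thinned counts, the interaction with a library left out, and the fits without the cell of 424 Cd74 UMIs, without cells with H2-Aa or H2-Eb1 or without scarce immune markers were chosen after seeing the data.

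The shares of Cd74-expressing cells were 0.512, 8.04, 0.363 and 0.0983% after thinning, 4.12, 23.4, 3.40 and 0.889% from 2 Cd74 UMIs, and 0.762, 7.85, 0.384 and 0% from 5 Cd74 UMIs, so that the irradiated library at 1 week then gave no pair. Without cells with other immune markers irradiated at 6 h was at 14.1%. Signs turned for Gbp2 and Irf7 without irradiated at 6 h and for Mki67 and Birc5 without sham at 1 week, where with each library left out in turn the log2 folds ranged from -0.62 to 2.42, -0.22 to 2.09, -0.094 to 2.96 and -0.62 to 2.75, and for Ccl4 (-0.13) from 5 Cd74 UMIs. Of 71 named genes called, 35 of the 67 still tested lost their call without irradiated at 6 h, 20 of 71 without sham at 6 h, 14 of 71 without sham at 1 week and 0 of 67 without irradiated at 1 week. Genes too scarce for the filter, such as H2-Aa without irradiated at 6 h, have no value there. Depth limits every gene in the 6 cells of irradiated at 1 week.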
